A study of Homo sapiens with 5 samples.

Results

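TEAD4 peaks of LX-2 cells that hold neither the TEAD motif nor the AP-1 motif at their summit were examined. A peak was placed in this class, called neither peaks here, when the window of 100 bp to each side of its summit held no match on either strand of the 7-base TEAD core ACATTCC and none of the AP-1 consensus TGACTCA, which reads TGAGTCA on the other strand. The class had 11849 of the 21113 peaks (56.1%, Wilson 95% interval 55.5 to 56.8). The remaining 9264 peaks were 3901 with the TEAD core only, 4415 with the AP-1 consensus only and 948 with both. LX-2 is an established human hepatic stellate cell line, used as a model of the myofibroblastic state of these cells. All cultures had received the solvent DMSO only, so there was no treated group. TEAD4 was immunoprecipitated in 3 replicates, and 2 input samples were sequenced, of which one served replicates 1 and 2. The authors left out replicate 2 as not concordant with the others and deposited a single peak list for replicates 1 and 3 on the hg38 build. That list gives 1 value per peak for both replicates together, so no spread between replicates could be given, the depth of each sample is unknown, and the peak was the unit of every comparison.

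TEAD factors bind DNA through a TEA domain that reads the M-CAT element. ACATTCC was used here as the TEAD core, so a related form such as TCATTCC counted as a departure from it. TEAD factors recruit the co-activators YAP1 and TAZ, which lack a DNA-binding domain of their own. AP-1 factors are dimers of FOS and JUN proteins that often occupy the same enhancers as TEAD factors. A chromatin immunoprecipitation peak can also arise where a factor is held by other proteins or contacts a sequence that departs from its consensus.

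The windows of the 3 neither peaks with the highest signal value are shown first, because they show which letters stood under the strongest signals of the class. All sequences here are from the hg38 build, + strand, and capitals in these 3 windows mark sites that differ from the TEAD core at 1 base, read on either strand.
chr5:37272681-37272881, 20094 bp from the start of NUP155, signal value 1074: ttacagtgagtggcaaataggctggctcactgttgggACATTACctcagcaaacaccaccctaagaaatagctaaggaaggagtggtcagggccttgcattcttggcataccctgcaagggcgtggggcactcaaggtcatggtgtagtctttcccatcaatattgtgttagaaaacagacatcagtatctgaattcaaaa
chr18:29165389-29165589, outside genes, 196191 bp from the nearest transcription start, signal value 866: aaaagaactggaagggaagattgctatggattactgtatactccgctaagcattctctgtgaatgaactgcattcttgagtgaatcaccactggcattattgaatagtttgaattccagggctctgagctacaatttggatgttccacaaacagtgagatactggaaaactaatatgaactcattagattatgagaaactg
chr3:197490125-197490325, outside protein-coding and lncRNA genes, 23866 bp from the start of BDH1, signal value 853: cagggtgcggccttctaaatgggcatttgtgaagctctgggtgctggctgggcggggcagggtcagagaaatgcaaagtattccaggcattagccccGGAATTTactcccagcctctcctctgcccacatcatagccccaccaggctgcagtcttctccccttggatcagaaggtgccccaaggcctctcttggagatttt
The first window held a single site at 1 mismatch, ACATTAC, which lay away from the summit and was not among the enriched sites below. The summit of that window stood in GCATTCT, which differs from the core at 2 bases. The third window held AAATTCC on the opposite strand, printed as GGAATTT. The second held none of the 21 possible sites with 1 mismatch, but it contained GCATTCT and GAATTCC, which differ from the core at 2 bases, and the AP-1-like TGAATCA.

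Windows of strong neither peaks with a leading TEAD-like site within 30 bp of the summit are shown next, with that site in capitals, because these sites were among those with the largest excess over the surrounding sequence; AAATTCC stands in the third window above.
GCATTCC on the opposite strand, chr1:108503247-108503307, signal value 769: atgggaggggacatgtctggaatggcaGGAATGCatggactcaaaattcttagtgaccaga
CGCATTCC, chr22:39176321-39176381, signal value 698: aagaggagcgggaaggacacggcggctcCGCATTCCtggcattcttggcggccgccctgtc
ACATTCT, chr13:87999566-87999626, signal value 777: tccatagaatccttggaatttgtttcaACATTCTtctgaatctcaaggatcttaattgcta
The first of these stood 52677 bp from NBPF6, the second 23466 bp from CBX7 and the third 326648 bp from SLITRK5, in each case outside protein-coding genes.

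Neither peaks were weaker on the whole than peaks with a motif. Their median signal value, the peak caller's measure of enrichment in the deposited list, was 62.9 (quartiles 43.1 and 103.6, range 6.57 to 1074). The median was 68.6 in AP-1 only peaks, 80.4 in TEAD only peaks and 90.5 in peaks with both motifs. A signal value above the median of the whole list (68.1) was found in 45.4% of neither peaks and 55.9% of the other peaks (odds ratio 0.658, 95% interval 0.623 to 0.695, Fisher's exact test, adjusted p = 8.38e-51). The distributions overlapped widely. When the whole list was divided into quintiles by signal value, neither peaks made up 68.4%, 57.1%, 54.5%, 52.4% and 48.2% of the peaks from the weakest quintile to the strongest. They thus still made up 48.2% of the strongest quintile, whose signal values ran from 129 to 1074. These and all following comparisons of shares used Fisher's exact test (two-sided), and p-values were adjusted by the Benjamini-Hochberg method within each family of tests. Neighbouring peaks are not independent and are not replicates, so the p-values are approximate, and the intervals cover counting error over peaks only.

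A subset of 604 neither peaks (5.10%) had a q-value above 0.05 in the deposited list, against 0.756% of the other peaks. Their median signal value was 9.64 and 600 of them had another summit within 1 kb. Another summit within 1 kb was found in 24.0% of all neither peaks and 15.2% of the other peaks (odds ratio 1.76, Fisher's exact test, adjusted p = 4.69e-57). Among peaks above the median signal value this odds ratio was 1.09. Without peaks that had another summit within 1 kb, the class was 53.4% of the list, and without peaks above a q-value of 0.05 it was 55.0%. Both restrictions were chosen after the values were seen.

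Like the rest of the list, neither peaks were mostly in introns or outside genes. By the position of the summit, 47.7% were in an intron of a protein-coding gene, 31.05% outside genes, 14.97% in a lncRNA gene, 5.25% in an untranslated region or noncoding exon and 1.01% in coding sequence. The corresponding shares of the other peaks were 48.6%, 32.02%, 14.5%, 3.86% and 0.993%. The median distance to a transcription start site (TSS) was 10296 bp. A TSS lay within 2.5 kb of 27.5% of neither peaks and 22.2% of the other peaks (odds ratio 1.33, 95% interval 1.25 to 1.42, Fisher's exact test, adjusted p = 1.08e-18). Taken class by class, the difference lay with the AP-1 peaks. The share near a TSS was 18.9% in AP-1 only peaks (odds ratio 1.63) and 17.8% in peaks with both motifs (odds ratio 1.75), but 27.0% in TEAD only peaks (odds ratio 1.03, Fisher's exact test, adjusted p = 0.548). Windows rich in CpG, in which the ratio of observed to expected CpG exceeded 0.6, made up 11.6% of neither peaks and 4.81% of the others (odds ratio 2.60, 95% interval 2.33 to 2.90). Here the share exceeded that of TEAD only peaks as well (8.43%). Both motifs lack CG, so the rule itself can shift base composition, and how far it did so was not tested. By chromosome, among the 23 with at least 100 peaks, neither peaks were between 52.8% (X) and 59.8% (5) of the peaks.

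To look for degenerate TEAD sites, each of the 21 sites that differ from ACATTCC at 1 base was counted in the windows of neither peaks and in equally wide flanking windows centred 2000 bp upstream and downstream. Only the 22245 of 23698 flanking windows that themselves held neither motif were used, so that the rule was the same on both sides. As background, all 8180 tested 7-base words were compared in the same way. Of these, 33.2% were more frequent in neither peaks than in flanks and 22.2% were less frequent at an adjusted p under 0.05. Of the 21 TEAD sites with 1 mismatch, 13 (61.9%) were more frequent and 0 were less frequent, and the other 8 did not pass. Among peaks within 2.5 kb of a TSS, 8 were more frequent and 2 less frequent, and 2 were less frequent with GC content and CpG ratio as covariates.

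GCATTCC stood apart from the other sites. Here the first base of the core is changed (A1G, counting positions from 1 at the 5′ end of the core). It was present in 22.3% of neither peaks and 2.43% of flanks (odds ratio 11.5, 95% interval 10.5 to 12.7). The same letters read backwards, which keep the base composition, had an odds ratio of 1.36. AAATTCC (C2A) followed with 19.4% of neither peaks and 4.01% of flanks (odds ratio 5.75, 5.30 to 6.23), and ACATTCT (C7T) with 11.5% and 4.48% (odds ratio 2.77). TCATTCC and AGATTCC each had an odds ratio of 2.54, ACATACC one of 2.25 and CCATTCC one of 2.01. The remaining 6 that passed were ACGTTCC (1.70), ACATTGC (1.43), ACATGCC (1.40), ACATTTC (1.31), ACTTTCC (1.19) and ACATTCA (1.15). Each of these 6 failed the test in some subset or with other windows. ACGTTCC did not pass above the median signal value (1.40) or among distal peaks (1.52), and the other 5 did not pass among TSS-proximal peaks (0.958 to 1.42). With flanks 1000 bp away, ACTTTCC and ACATTCA were both at 1.06 and did not pass, and ACTTTCC was at 0.958 with windows of 50 bp to each side.

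By position, substitutions at the first base had odds ratios from 2.01 to 11.5 and those at the fourth base from 0.845 to 0.935. The ranges were 0.968 to 5.75 at the second base, 0.867 to 1.70 at the third, 1.08 to 2.25 at the fifth, 1.08 to 1.43 at the sixth and 1.15 to 2.77 at the seventh. The largest odds ratios thus belonged to changes at the first, second and seventh base, and none of the changes at the fourth base was enriched. With the first base free, the 6 bases CATTCC were found in 32.3% of neither peaks and 7.90% of flanks (odds ratio 5.57, 5.23 to 5.92). Any site with 1 mismatch was found in 73.8% and 42.0% (odds ratio 3.89, 3.70 to 4.08).

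AP-1 only peaks also lack the exact core by definition, so they show whether these sites belong to neither peaks in particular. CATTCC was found in 27.2% of AP-1 only peaks against 32.3% of neither peaks (odds ratio 1.28, 95% interval 1.19 to 1.38, exact p = 2.08e-10). For GCATTCC the shares were 16.6% and 22.3% (odds ratio 1.45, 1.32 to 1.58, exact p = 3.20e-16). For any site with 1 mismatch they were 71.9% and 73.8% (odds ratio 1.10, exact p = 0.0151). These 3 shares were therefore higher in neither peaks than in AP-1 only peaks by a small margin, while both exceeded the flanks. Single sites went either way, without a test. AAATTCC (19.4% and 17.6% of AP-1 only peaks) and ACATTCT (11.5% and 10.1%) were more frequent in neither peaks. TCATTCC (7.44% and 8.24%), AGATTCC (6.29% and 6.70%) and ACATTCA (4.16% and 5.57%) were more frequent in AP-1 only peaks. In TEAD only peaks, which hold the exact core already, GCATTCC was found in 10.0%.

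The base before GCATTCC was examined because the element continues beyond the core. T was the most frequent preceding base (TGCATTCC in 11.3% of neither peaks and 1.14% of flanks, odds ratio 11.0). CGCATTCC was less frequent, but the ratio to flanks was larger, with 2.73% against 0.0989% (odds ratio 28.3, 95% interval 18.4 to 43.6). It was found in 5.90% of neither peaks near a TSS and in 1.52% of the distal ones. Against their own flanks the odds ratio was 47.9 near a TSS, where only 8 flanks held it, and 17.8 for distal peaks. CGCATTCC contains CG, and of all 7-base words with CG, 49.8% were more frequent than in flanks. The printed window near CBX7 is an example.

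Some sites with 2 changed bases combined substitutions that were frequent singly. GAATTCC (A1G and C2A), which stands in the second strongest window, was found in 12.2% of neither peaks and 2.203% of flanks (odds ratio 6.16, exact test, with p adjusted over all 7-base words = 3.07e-295). GCATTCT (A1G and C7T), present in the 2 strongest windows, was found in 8.52% and 2.85% (odds ratio 3.17), and GGATTCC (A1G and C2G) in 5.77% and 1.69% (odds ratio 3.57). Over all 189 sites with 2 changes, 58 (30.7%) were more frequent than in flanks and 38 (20.1%) less frequent, near the shares over all 7-base words, and the median odds ratio was 1.05. Other sites with larger odds ratios than GCATTCT were GCGTTCC (1.28% and 0.373%, odds ratio 3.47) and the rare ACGTTCG (0.186% and 0.0360%, odds ratio 5.17). Of the 70 sites that combined a pair of singly enriched changes, 28 were more frequent than in flanks, 9 were less frequent and 33 did not pass. The lowest was CCATGCC (3.22% and 5.26%, odds ratio 0.598).

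The enriched sites were concentrated at the summit. Within 25 bp of it, GCATTCC occurred at 3.28 matches per 1000 neither peaks per bp against 0.191 at 200 to 300 bp, a ratio of 17.2. The ratio was 8.10 for AAATTCC (2.41 against 0.298) and 4.73 for ACATTCT (1.18 against 0.250). The exact core in TEAD only peaks, which the rule selected within 100 bp, gave 14.0 against 0.252 and serves as a scale for what a chosen motif looks like. AP-1-like and RUNX sites were also concentrated there, TGAATCA with a ratio of 4.10 and TGTGGTT with 3.69, and the GC box less so (1.70). The rare CTCF motif had a ratio of 11.2, from 33 matches within 25 bp and 12 at 200 to 300 bp.

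The share of neither peaks with each TEAD-like site examined was higher in the strongest quintile by signal value than in the weakest, but not every share rose at each step. By quintiles of the neither peaks from weakest to strongest, GCATTCC was found in 12.6%, 20.04%, 22.03%, 23.5% and 33.3%. From the weakest to the strongest quintile, CATTCC went from 21.6% to 43.4%, AAATTCC from 12.5% to 24.1%, ACATTCT from 7.43% to 14.98%, GAATTCC from 6.92% to 16.1% and GCATTCT from 5.91% to 11.5%. GAATTCC was lower in the middle quintile (11.3%) than in the one before (12.3%), and GGATTCC was highest in the middle quintile (7.01%, against 4.22% in the weakest and 6.29% in the strongest). TGAATCA (7.59% to 13.5%) and RUNX (7.43% to 12.3%) were also more frequent in the strongest quintile. The GC box (7.51% to 5.36%) and the CTCF motif (0.886% to 0.338%) were less frequent there. These shares are given as a description, without a test.

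Many neither peaks held several TEAD-like sites, and pairs of them recurred at some spacings. Counting CATTCC together with AAATTCC and with ACATTCT, 45.4% of neither peaks had 0 sites (84.5% of flanks), 41.2% had 1, 11.3% had 2 and 2.08% had 3 or more (0.153% of flanks). The median signal value of these groups was 55.0, 68.6, 78.1 and 102. Among pairs of CATTCC or AATTCC on the same strand, starts 9 bp apart, with 3 bases between the sites, occurred 128 times. The median over the other spacings from 6 to 40 bp was 14.5, and the highest other count was 29. Per 1000 windows these were 10.8 pairs in neither peaks, 0.135 in flanks and 2.94 in AP-1 only peaks, and pairs on opposite strands 9 bp apart numbered 1.69 in neither peaks. With CATTCC alone, same-strand pairs with starts 9 bp apart numbered 46 in neither peaks, against a median of 4 at the other spacings and 0 in flanks. Same-strand pairs at this spacing are known as tandem M-CAT elements. Matches on opposite strands with starts 2 bp apart were each the single palindrome GGAATTCC, which contains GAATTCC and is read once on each strand. They are thus not pairs of separate sites. Such matches numbered 36.8 per 1000 windows in neither peaks, 3.46 in flanks and 22.2 in AP-1 only peaks. An example of the same-strand pairs is the window on chromosome 1 printed above, shown here again with both copies in capitals.
Tandem CATTCC on the opposite strand, chr1:108503247-108503307, signal value 769: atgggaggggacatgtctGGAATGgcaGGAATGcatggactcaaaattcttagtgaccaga

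AP-1-like sites with 1 mismatch to the consensus were the second group. Of 19 distinct sites, 13 (68.4%) were more frequent in neither peaks than in flanks, 3 were less frequent and 3 did not pass, beside 33.2% and 22.2% of all 7-base words that were more and less frequent. TGAATCA (C4A), which changes the central base, was found in 12.1% of neither peaks and 3.18% of flanks (odds ratio 4.19, 95% interval 3.82 to 4.60). TGACTAA (C6A) was found in 8.80% and 2.13% (odds ratio 4.44), and TTACTCA (G2T) in 7.71% and 2.65% (odds ratio 3.06). The 3 sites that were less frequent, TGCCTCA (odds ratio 0.577), TGGCTCA (0.507) and TGTCTCA (0.764), were all changed at position 3. TGAATCA was also more frequent in neither peaks than in the other peaks of the list (12.1% against 7.30%, odds ratio 1.75). It was less frequent at neither peaks near a TSS (7.19%) than at distal ones (14.0%, odds ratio 0.477). Any AP-1 site with 1 mismatch was found in 57.9% of neither peaks and 47.5% of flanks (odds ratio 1.52, 1.45 to 1.59), but not so among peaks near a TSS, where the odds ratio was 0.969. Windows of strong peaks with the leading AP-1-like sites within 30 bp of the summit are shown with these sites in capitals. They lie outside genes on chromosome 18 and in an intron of GAB2 on chromosome 11. Both windows also contained a TEAD-like site in lower case, GAATTCC on chromosome 18 and GCATTCC on chromosome 11.
TGAATCA, chr18:29165459-29165519, signal value 866: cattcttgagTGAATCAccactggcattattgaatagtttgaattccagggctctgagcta
TGACTAA on the opposite strand, chr11:78365470-78365530, signal value 527: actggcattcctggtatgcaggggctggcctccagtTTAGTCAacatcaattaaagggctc

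To look beyond TEAD and AP-1, 32 textbook motifs, which included CATTCC and TGAATCA, were compared with the flanks. Of these, 23 were more frequent in neither peaks, 3 were less frequent and 6 did not pass, with a median odds ratio of 1.46. Their background was again that 33.2% of words were more frequent and 22.2% less frequent, and it differed by composition. Among words containing CG, 49.8% were more frequent and 5.35% less frequent than in flanks. Among words with at most 1 G or C, 3.71% were more frequent and 81.25% less frequent. The mean GC content was 46.2% in neither peaks and 43.0% in flanks.

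With CATTCC and TGAATCA left aside, the largest odds ratios belonged to motifs known from CpG-rich promoters and chromatin architecture, most of them rare. NRF1, a regulator of nuclear genes for mitochondrial proteins, has the motif CGCATGCG. It was found in 33 neither peaks (0.279%) and 5 flanks (0.0225%, odds ratio 12.4). The cyclic AMP response element TGACGTCA, bound by CREB and ATF factors, was found in 0.582% and 0.0764% (odds ratio 7.66). CTCF, the insulator protein at loop anchors, had its motif in 78 neither peaks (0.658%) and 0.0989% of flanks (odds ratio 6.69). The GC box GGGCGGG of SP and KLF factors was found in 6.42% and 1.62% (odds ratio 4.17), and the promoter ETS site CCGGAAG in 2.53% and 0.656% (odds ratio 3.93). With GC content and CpG ratio as covariates these odds ratios were 6.66, 5.24, 5.48, 2.46 and 2.84, all still past the threshold.

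RUNX factors take part in mesenchymal differentiation. Their motif TGTGGTT was present in 10.5% and 3.69% of flanks (odds ratio 3.08, 95% interval 2.81 to 3.37; 3.35 with the covariates). The enhancer ETS site AGGAAGT was found in 8.04% and 4.04% (odds ratio 2.08), the NFI element TTGGCA in 16.1% and 10.6% (odds ratio 1.62) and the E-box CAGCTG of bHLH factors in 13.02% and 7.98% (odds ratio 1.73). The E-box CACGTG had an odds ratio of 1.503 and CAGATG one of 1.23. The motifs of C/EBP with ATF (TGATGCAA, 2.21), NF-kB (1.83), STAT (TTCNNNGAA, 1.66) and NRF2 with small MAF factors (TGACNNNGC, 1.56) were also more frequent. SRF, the regulator of contractile genes, had an odds ratio of 1.36. The KLF box GGGTGGG had one of 1.41, YY1 (ATGGCGG) 1.40, NF-Y (AGCCAAT) 1.29, the GATA motif AGATAAG 1.25 and the nuclear receptor element AGGTCA 1.12. Of these, CAGATG (odds ratio 0.973), GATA (0.938) and the nuclear receptor element (0.837) were below 1 among peaks near a TSS. YY1 was at 0.651 among distal peaks and 0.931 with the covariates.

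Motifs rich in A and T were less frequent than in flanks, namely MEF2 (odds ratio 0.532) and the homeobox motif TAATTA (0.723), as was ZNF143 (ACTACAA, 0.750). Since 81.25% of words with at most 1 G or C were also less frequent, nothing is read from the odds ratios of MEF2 and the homeobox motif. FOX (TGTTTAC), C/EBP (TTGNNCAA), IRF (GAAANNGAA), TCF/LEF (ATCAAAG) and the SMAD palindrome GTCTAGAC did not pass, nor did the control CCTTACA, the TEAD core read backwards (odds ratio 0.874).

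Examples of the other motif classes are shown, from peaks without either consensus. The CTCF example was the weakest and lay below the strongest quintile of neither peaks, which began at a signal value of 118. Capitals mark the named motif.
RUNX on the opposite strand, chr15:31024582-31024642, in an intron of TRPM1, signal value 619: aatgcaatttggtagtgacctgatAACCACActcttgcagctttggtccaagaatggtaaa
GC box, chr20:50790847-50790907, 3808 bp from BCAS4, signal value 583: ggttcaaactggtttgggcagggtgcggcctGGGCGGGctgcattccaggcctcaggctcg
Promoter ETS on the opposite strand, chr19:37999698-37999758, in an intron of SIPA1L3, signal value 462: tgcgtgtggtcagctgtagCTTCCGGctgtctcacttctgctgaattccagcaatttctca
CTCF, chr7:141976405-141976465, in an intron of MGAM, signal value 110: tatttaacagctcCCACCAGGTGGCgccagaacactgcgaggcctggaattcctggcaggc
The windows of the GC box, promoter ETS and CTCF examples also contained GCATTCC or GAATTCC in lower case.

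Neither peaks near a TSS and distal neither peaks differed in these motifs, with 10 of 32 more frequent near a TSS, 14 less frequent and 8 not passing. Over all 7-base words, 28.6% were more frequent near a TSS and 29.3% less frequent, so the number of motifs that differed is in itself no result. The GC box was found in 18.4% of those near a TSS and 1.90% of the distal ones (odds ratio 11.6), and promoter ETS in 6.20% and 1.14% (odds ratio 5.73). RUNX was found in 6.33% and 12.1% (odds ratio 0.489). CATTCC showed no such difference, with 32.4% and 32.3% (odds ratio 1.00, Fisher's exact test, adjusted p = 0.930). Against their own flanks, GCATTCC was at 24.0% and 2.55% near a TSS (odds ratio 12.0) and at 21.7% and 2.38% elsewhere (odds ratio 11.3).

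Compared with the other peaks of the same list rather than with flanks, 13 of the 32 motifs were more frequent in neither peaks, 5 were less frequent and 14 did not pass, while over all 7-base words 7.48% were more frequent and 3.42% less frequent. NRF1 (odds ratio 3.69), the cyclic AMP response element (2.08), the GC box (6.42% against 3.37%, 1.97), CTCF (1.70), promoter ETS (1.63) and RUNX (10.5% against 8.26%, 1.31) were among the more frequent. The E-boxes CAGATG (0.890) and CAGCTG (0.912), FOX (0.828) and the NRF2 motif (0.707) were less frequent. The NRF2 motif shares letters with AP-1, and CATTCC, the last of the 5, is part of the core that the rule used.

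The search over all 7-base words returned mostly the same letters. Among the 15 words with the smallest p-values, 11 matched the TEAD core with 0 or 1 mismatch when shifted by up to 2 bases, led by GCATTCC (odds ratio 11.5), CATTCCA (6.76), AAATTCC (5.75), ATTCCAG (5.64) and GAATGCA (5.48). For shifted words only the overlapping bases were compared, on either strand. How many of all 7-base words match so loosely was not counted. ATTCCAG was found in 19.6% of neither peaks and 4.15% of flanks. The others were the AP-1-like TGAATCA and TGACTAA, the TEAD-like GAATTCC and the word CCAGGAA (13.5% and 5.30%, odds ratio 2.79).

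Both motifs were also searched just outside the window. At over 100 and up to 250 bp from the summit, the exact TEAD core was found in 7.11% of neither peaks and 4.21% of flanks (odds ratio 1.74). Without peaks that had another summit within 1 kb, the odds ratio was 1.09 (exact p = 0.189). The AP-1 consensus was found there in 11.0% and 5.27% (odds ratio 2.22, and 1.67 or more under every alternative run). At the edge of the rule, 45 neither peaks (0.380%) had the TEAD core and 167 (1.41%) the AP-1 consensus within 110 bp but not within 100 bp. Among the other peaks, 243 (2.62%) held their only motif beyond 90 bp.

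Neither peaks were then divided by the first site they held, in the order GCATTCC, another CATTCC, then AAATTCC and then ACATTCT, followed by the AP-1-like and other motifs. This order was chosen after the values were seen, so the shares are a description. GCATTCC accounted for 22.3%, another CATTCC for 10.0%, AAATTCC for 15.1% and ACATTCT for 7.13%, together 54.6% of neither peaks and 15.5% of flanks. TGAATCA or TGACTAA came first in a further 10.0% (4.37% of flanks) and RUNX in 3.68% (2.92% of flanks). All shares are over all windows, and 64.6% of neither peaks but 19.9% of flanks had been placed before the RUNX step. The later shares therefore do not give the enrichment of a site. The GC box or promoter ETS came first in 3.798% (1.85% of flanks). Of the last group, 82.2% were within 2.5 kb of a TSS and the median signal value was 48.9. The remaining 3303 peaks (27.9%, against 75.4% of flanks) held none of these sites. Their median signal value was 51.5, 11.9% had a q-value above 0.05 and 36.0% had another summit within 1 kb. Of these 3303 peaks, 34.0% held GAATTCC or GCATTCT or GGATTCC (6.43% of the corresponding flanks).

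The 10 neither peaks with the highest signal values, from 700 to 1074, had the highest IDR score of 1000. Among them, 8 were outside protein-coding genes and 2 in introns, of PDZD2 and IQCJ-SCHIP1. The peak of rank 6 (chr3:134326840-134327354, signal value 765) lay 39487 bp from AMOTL2, a known YAP1 target, and held GCATTCT. The peak of rank 4, near SLITRK5, held AAATTCC and ACATTCT together with GGATTCC and TGACTAA. Of the 21 TEAD sites with 1 mismatch, the peak in PDZD2 held ACATGCC only.

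Neither peaks were lastly assigned to genes whose TSS lay within 50 kb, for 6 lists of genes relevant to stellate cells. The lists were drawn up with earlier results of these data known, and no test was made. Of all 20020 protein-coding genes, 41.8% had a neither peak within 50 kb, and these made up 56.9% of the peaks near such genes. Of 20 matrix genes, 14 had one, and 59 of their 90 peaks (65.6%) were neither peaks. FBN1, which encodes the microfibril protein fibrillin-1, had 10 such peaks, and THBS1, encoding the matricellular protein thrombospondin-1, had the strongest (signal value 476), which covered its TSS and held GCATTCC. Of 14 contractile genes, 12 had one, and the share was highest among the lists (45 of 64 peaks, 70.3%). TPM1, for tropomyosin, and MYLK, for myosin light chain kinase, had 10 each, and the strongest, with ACATTCT, was 45754 bp from TPM1 (signal value 632).

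Of 22 YAP and TEAD target genes, 19 had a neither peak, and 84 of 142 peaks (59.2%) were in the class. CRIM1, a transmembrane protein that binds BMPs, had 16 of 24, and AMOTL2 had the strongest. CCN2, a classical target that encodes connective tissue growth factor, had 5 peaks and 0 neither peaks, whereas CCN1 had 7 of 10. Both were singled out after their values were seen. Of 11 genes for TEAD, YAP and their partners, 8 had one (24 of 39 peaks, 61.5%), with VGLL3 highest in number (6 of 10) and an intronic peak of VGLL4 strongest (signal value 370). Both encode vestigial-like proteins that bind TEAD factors. Of 25 transcription factor genes, 17 had one (55 of 90 peaks, 61.1%), SMAD3 with 12 and SMAD7 with the strongest (signal value 197), which encode a transducer and an inhibitor of TGF-β signalling. Of 18 genes for growth factors and receptors, 14 had one (42 of 73 peaks, 57.5%), PDGFC with 13 and PDGFA with the strongest (signal value 250, holding GCATTCC), both encoding ligands of PDGF receptors. The lists thus ranged from 57.5% to 70.3%, beside 56.9% for all protein-coding genes.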

How the data were processed

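TEAD4 ChIP-seq of LX-2 cells was used as 1 deposited list of 10 columns and 21113 peaks. The authors mapped reads to hg38 with Chromap and combined replicates 1 and 3 with the ENCODE IDR pipeline. Each peak's score (scaled IDR), signal value and q-value (as −log10) are the authors' deposited values, and the last column gave the summit. The peak caller is not given in the sources used here, and column meanings were read from the layout. Windows of 100 bp to each side of the summit were read from hg38, and genes were from GENCODE release 44. Flanks lay 2000 bp away and passed the same rule. Words of 7 bases found in at least 20 windows were tested. Differences in shares were tested by Fisher's exact test (two-sided, Benjamini-Hochberg threshold 0.05), with Woolf 95% intervals and logistic models for covariates. The members and the lists of motifs and genes were chosen with earlier results of these data known. Named were the 10 strongest members, the 15 words with the smallest p-values, motifs past the threshold, and per gene list the gene with the most members and the one with the strongest. Alternatives changed the peaks, window, flanks, rule, word length and covariates. The code was tested on simulated data. Software was Python 3.11.15, scipy 1.17.1, pysam 0.24.0, numpy 2.4.6, statsmodels 0.14.6, pandas 2.3.3 and matplotlib 3.10.9.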

Additional observations from a re-analysis of the deposited data

How the results depend on the processing

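Over 94 results, 1173 alternatives were run (506 planned and 667 added after the data were seen), and 1089 kept the direction and the side of the threshold, or a count or share near the reported one. Under every alternative run, the enrichment against flanks kept both for GCATTCC (odds ratio 10.7 to 21.9), AAATTCC (5.53 to 9.25), CATTCC (5.19 to 8.98), TGAATCA (2.43 to 5.09), RUNX (2.06 to 3.61) and the GC box (2.34 to 5.81). The share of neither peaks, 56.1%, was 53.7% with overlapping peaks merged, 51.0% above the median signal value, 54.3% at the highest IDR score, 55.0% at a q-value at or under 0.05 and 53.4% with no other summit within 1 kb. It was 65.2% with a rule of 50 bp, 46.5% with 250 bp, 38.0% with the 6-base core and 49.03% with any AP-1 middle base and the cyclic AMP response element. The odds ratio of neither against other peaks for GC content at or over 50%, 1.11 (Fisher's exact test, adjusted p = 0.000464), was 1.05 at the highest IDR score, 1.06 with the rule of 50 bp and 0.953 above the median signal value. None of these passed the test. Taken class by class, GC content at or over 50% was found in 29.1% of neither peaks and 31.6% of TEAD only peaks (odds ratio 0.890). The odds ratio was 1.31 against AP-1 only peaks and 1.43 against peaks with both motifs. Above the median signal value the odds ratio for the highest IDR score, 0.729, was 0.874, and that for another summit within 1 kb, 1.76, was 1.09 and with the rule of 250 bp 1.01, none of which passed. The number of TEAD sites with 1 mismatch that were less frequent than in flanks, 0, was 1 at the highest IDR score, at a q-value at or under 0.05, with flanks 5000 bp away and among distal peaks, and 2 among proximal peaks and with GC content and CpG ratio as covariates. Among proximal peaks, 8 were more frequent and 5 known motifs were less frequent. The words more frequent than in flanks, 2714, were 1676 above the median signal value. With words of 6 bases, 881 were more and 701 less frequent, and with 8 bases 5566 and 3510. The odds ratio of the TEAD core beyond 100 and up to 250 bp was 1.09 with no other summit within 1 kb. Reversals among proximal peaks were any AP-1 site with 1 mismatch (0.969), ACTTTCC (0.958, also 0.958 with windows of 50 bp), CAGATG (0.973), GATA (0.938) and the nuclear receptor element (0.837), and YY1 reversed among distal peaks (0.651) and with the covariates (0.931). Apart from alternatives that themselves leave out peaks or change the rule, the cause was not tested.

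No paired analysis was possible because the deposited list combines replicates 1 and 3 and carries no value per replicate. No replicate was left out in turn either, and the depth behind each peak is unknown. The comparison of repeat-masked shares was not run, since the genome sequence used here carries no mask.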

Other observations

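Overlapping peaks formed 19426 regions, of which 1669 held several summits. A neither peak was found in 1545 of these, in 757 beside a peak with a motif and in 788 beside other neither peaks only. In all, 2347 neither peaks lay in regions with several summits and 9502 were alone in their region. Beyond 100 bp from the summit but within the peak interval, 578 neither peaks (4.88%) held the TEAD core and 943 (7.96%) the AP-1 consensus. Among the 10 strongest neither peaks, the TEAD core was found beyond 100 and up to 250 bp from the summit in 1, the peak of rank 9 near PAWR, and the AP-1 consensus in 1, the peak of rank 10 in IQCJ-SCHIP1.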
